A study of Mus musculus with 30 samples.

Results

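The 7 genes described here are the TGF-beta ligands Tgfb1, Tgfb2 and Tgfb3, their receptors Tgfbr1, Tgfbr2 and Tgfbr3, and Tgfbi, a gene that TGF-beta induces. They were chosen by name as a gene family, with earlier results of these data known. All 7 were found among the 23013 gene rows of a single-cell RNA table covering 8 organs of healthy and arthritic mice. On the GRCm38 mouse genome the ligand genes lie on chromosome 7 at 25687002 to 25705077 (Tgfb1), on chromosome 1 at 186622787 to 186709697 (Tgfb2) and on chromosome 12 at 86056743 to 86079041 (Tgfb3). The receptor genes lie on chromosome 4 at 47353222 to 47414926 (Tgfbr1), on chromosome 9 at 116087695 to 116175363 (Tgfbr2) and on chromosome 5 at 107106567 to 107289629 (Tgfbr3), and Tgfbi lies on chromosome 13 at 56609586 to 56639359.

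TGF-beta ligands are secreted in a latent form, bound to their own propeptide and to matrix or cell-surface proteins, and act once they are released from it. The free ligand binds the type II receptor kinase, encoded by Tgfbr2, which recruits and phosphorylates the type I receptor kinase, encoded by Tgfbr1, and the signal passes to SMAD proteins that enter the nucleus. The co-receptor betaglycan, encoded by Tgfbr3, presents ligand, TGF-beta2 above all, to the type II receptor. Tgfbi encodes a secreted matrix protein. In the immune system TGF-beta1 restrains T cells and supports regulatory T cells, and in connective tissue the pathway drives the making of collagen and other matrix.

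The animals were male mice of the DBA1/J strain, either healthy or with arthritis induced by collagen (CIA, a model of rheumatoid arthritis), and the samples address how this family differs between organs and between disease states. CIA mice had received 100 µg of bovine collagen II in complete Freund's adjuvant, injected into the skin close to the tail, and a booster in incomplete adjuvant on day 20. By the study's methods the healthy mice were injected with buffer only, so the state compares collagen together with adjuvant against neither. Arthritis was scored as 0 in H3, H4, H6 and H7, which were the healthy animals, as 8 in S1 and in S2, as 3 to 4 in S6, and as 3 in S7, which were the CIA animals. Blood (mononuclear cells from a density gradient) came from H3, H4, H6 and H7 and from S2, S6 and S7, and lymph node from the same healthy mice and from S1, S2 and S7. Joint came from H3 and S1, and lung, muscle, skin, spleen and thymus from H6 and S1, so these 6 organs had 1 mouse per state and no replicate check. The samples had been frozen. Cells of joint, lung, muscle and skin were released with enzymes, those of thymus, spleen and lymph node by straining alone, and red cells were lysed by the study's methods.

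The 30 Seq-Well libraries held 27 to 934 barcodes and 217494 to 7886790 units, a unit being 1 step of the deposited whole-number signal, which the authors had smoothed over similar cells. A level is given as units per 1000000 summed units of a mouse and organ (UPM). The libraries listed 2495 to 16460 genes, and in 19 of the 30 most of the rarest genes were missing, so a gene without units is described only as listed at 0. The 2 blood libraries with the fewest genes, one of the pair from H4 and the only one from S6, listed 2495 and 2705, and all 7 family members were at 0 in both. Library titles end in CIA (13 libraries) or 2CIA (17), with no explanation in the labels. All CIA blood libraries carried 2CIA. In 5 organs (thymus, spleen, skin, muscle and lung) H6 had a library ending in CIA and S1 one ending in 2CIA, so there the suffix and the state cannot be told apart.

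Among the ligands, Tgfb1, the main form made by leukocytes, was listed above 0 in 27 of the 30 libraries, with a median of 63.5 UPM per library. Its mean level was highest in healthy lung (128 UPM) and healthy blood (122 ± 35.8 UPM, SD, n = 4 mice), followed by healthy lymph node (81.6 ± 13.8 UPM, SD, n = 4 mice). The first 2 differed by less than the spread between blood mice, and their order turned when the levels were scaled by a trimmed mean or by the median ratio over genes. Healthy thymus, joint and muscle stood between 69.3 and 76.1 UPM, healthy spleen at 44.8 UPM and healthy skin at 9.85 UPM. Healthy skin was therefore the lowest of the 8 healthy organs, although it rests on 1 mouse.

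Tgfb2 and Tgfb3, the forms made mainly by stromal and epithelial cells, were each listed above 0 in 4 of the 30 libraries. These were the same libraries: the 2 skin libraries, the muscle library of S1 and one of the pair of joint libraries from S1. Tgfb2 stood at 22.4 UPM in healthy skin, 44.4 UPM in CIA skin, 26.0 UPM in CIA muscle and 40.1 UPM in CIA joint. Tgfb3 stood at 2.74 UPM in healthy skin, 31.7 UPM in CIA skin, 28.4 UPM in CIA muscle and 25.4 UPM in CIA joint. With each distinct profile counted once, CIA skin was at 10.6 UPM for Tgfb3, and CIA muscle at 15.7 UPM for Tgfb2 and for Tgfb3. Both were listed at 0 in every library of blood, lymph node, lung, spleen and thymus. The healthy joint and healthy muscle libraries, where both were at 0, were among the 19 in which most rare genes were missing, while the 4 libraries with values were among those that kept them, so the state and this difference between libraries cannot be told apart in joint and muscle.

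Of the receptors, Tgfbr1 was above 0 in 21 of the 30 libraries and reached its highest level in lung, at 161 UPM in H6 and 143 UPM in S1. Healthy muscle (108 UPM), CIA skin (83.8 UPM) and healthy thymus (77.5 UPM) followed, and CIA muscle was listed at 0. In blood and lymph node it was low, with group means of 4.49 to 16.6 UPM. Tgfbr2 was above 0 in 27 of the 30 libraries. Its highest level was in CIA muscle (234 UPM), which is a library of 54 barcodes with 16 distinct profiles. Healthy blood (85.0 ± 38.1 UPM, SD, n = 4 mice), both lymph node groups and both joint mice lay between 77.1 and 85.0 UPM and were not separated by the spread between mice. Thymus was low in Tgfbr2, at 5.20 UPM in H6 and 8.88 UPM in S1, and lung stood at 16.8 UPM in H6 and 0 in S1. The type I and type II receptor genes were thus placed differently over the organs, with a Pearson correlation of -0.76 on the log2(UPM + 10) scale over 16 organ-state means, which share libraries within a mouse and have no test.

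Tgfbr3 was above 0 in 12 of the 30 libraries, and its highest levels lay in skin and joint. It stood at 117 UPM in healthy skin, 78.8 UPM in healthy joint, 55.7 UPM in CIA skin and 47.6 UPM in CIA joint, with muscle at 21.3 and 28.4 UPM and thymus at 17.8 and 10.1 UPM in H6 and S1. Spleen stood at 0 in H6 and 2.81 UPM in S1, and lung at 0 in both. In blood it was above 0 in H6 alone, and in lymph node in H7 and S2 alone. Over the 16 organ-state means Tgfbr3 followed Tgfb2 (r = 0.68) more closely than Tgfb1 (r = -0.50), as a description with no test. The pair Tgfb2 and Tgfb3 had the highest correlation of the 21 pairs (r = 0.93), which rests on the few groups where either was above 0.

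Tgfbi was above 0 in 16 of the 30 libraries and was highest in joint, at 220 UPM in H3 and 197 UPM in S1. CIA lung (147 UPM) and CIA skin (89.5 UPM) followed, then CIA blood at 62.5 ± 63.4 UPM (SD, n = 3 mice) and CIA spleen (60.6 UPM). Both thymus libraries and all 4 healthy lymph node mice were listed at 0. Which of the joint mice led depended on scaling and on whether repeated profiles were counted, since S1 was above H3 under the trimmed mean, the median ratio and with each distinct profile counted once.

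**Figure D1:**
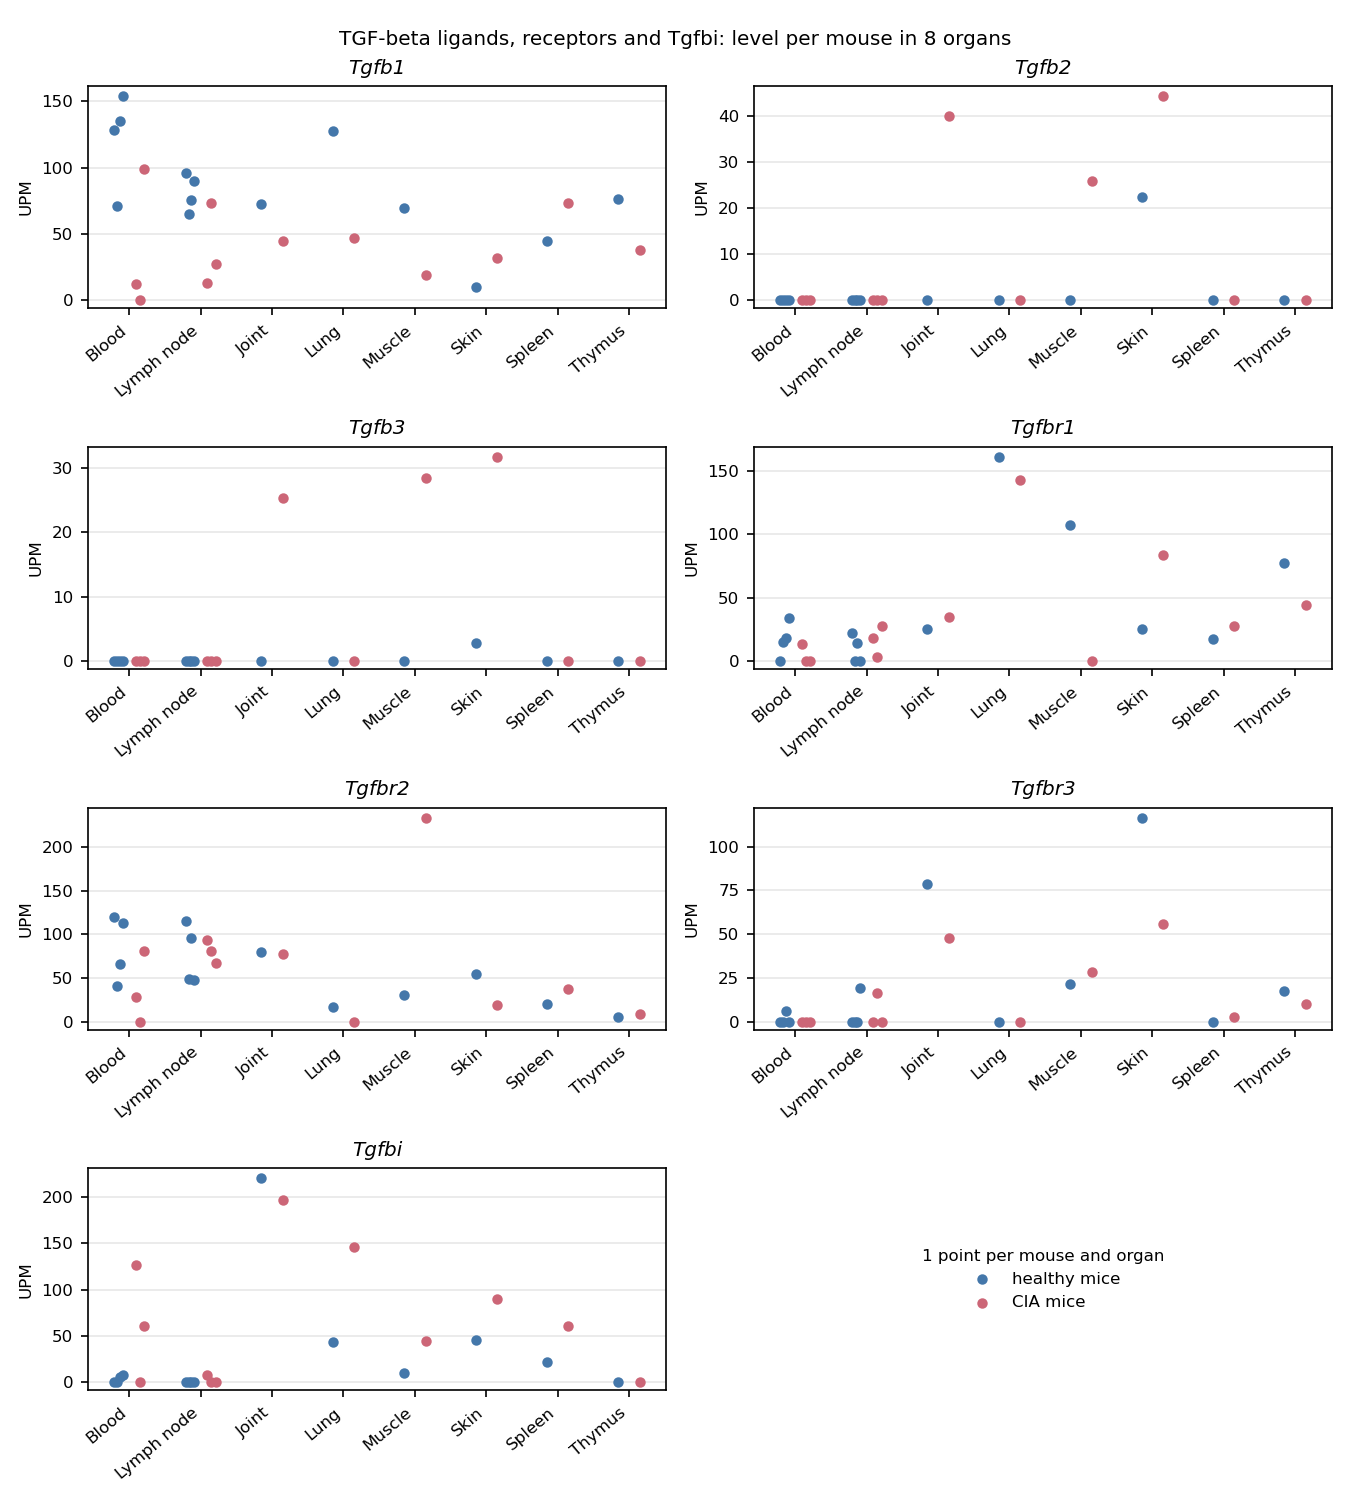
Each panel plots 1 gene, with organs along the x axis and the level in UPM on a linear y axis, and 1 point per mouse and organ (blue healthy, red CIA). Tgfb2 and Tgfb3 were above 0 in skin, CIA joint and CIA muscle, Tgfbr1 peaked in lung, and Tgfbi in joint.

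In blood, the comparison of CIA with healthy mice asks whether circulating cells carry a different TGF-beta profile in arthritis. Tgfb1 stood at 129, 70.9, 135 and 154 UPM in H3, H4, H6 and H7 (healthy) and at 11.9, 0 and 98.8 UPM in S2, S6 and S7 (CIA). S2 and S6 lay below all healthy mice and S7 lay above H4, so the groups overlapped. The difference was -2.15 (SE 0.93) on the log2(UPM + 10) scale and did not pass limma's test over 4416 genes (adjusted p = 0.538). With the libraries of suffix 2CIA alone, which leaves H3 and the gene-poor library of H4 as controls, it was -0.37 (SE 1.79).

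Tgfbr2 was also lowest in S2 and S6, with 119.5, 40.4, 66.5 and 114 UPM in H3, H4, H6 and H7 and 28.0, 0 and 80.7 UPM in S2, S6 and S7. S7 lay above H4 and H6, so these groups overlapped as well, and the difference of -1.45 (SE 0.97, log2 scale) had an adjusted p of 0.655 in limma. Tgfbi went the other way in 2 of 3 CIA mice. It was at 0, 0, 5.62 and 7.99 UPM in H3, H4, H6 and H7 and at 127, 0 and 60.9 UPM in S2, S6 and S7. S2 and S7 stood well above every healthy mouse and S6 was listed at 0, and the difference of 1.83 (SE 0.97, log2 scale) did not pass the test (adjusted p = 0.575 in limma).

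Of the 7 genes, 3 passed the filter of a mean of 25 UPM in blood and 0 of these were called, beside 16 calls among all genes tested (0.362%), while 1 of the 3, Tgfb1, had an unadjusted p under 0.05 in limma (0.0307). Tgfbr1 stood at 0, 14.8, 17.8 and 33.7 UPM in the healthy mice and 13.5, 0 and 0 UPM in the CIA mice, a difference with p = 0.20 in a two-sided exact permutation test whose smallest possible p was 0.0286. For Tgfbr3, with 6.09 UPM in H6 and 0 in the other 6 mice, the exact permutation p was 1. Tgfb2 and Tgfb3 were at 0 throughout and had no test.

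Without the gene-poor libraries of H4 and S6, an alternative chosen after seeing the data that leaves 2 CIA mice, the differences were -1.45 (SE 0.80) for Tgfb1, -0.65 (SE 0.79) for Tgfbr2 and 2.93 (SE 0.98) for Tgfbi, all on the log2 scale and with adjusted p from limma of 0.699, 0.864 and 0.489. Some summed marker lists of other cells moved with the blood groups and others overlapped. Erythroid markers summed to 35814 to 561398 UPM in healthy libraries and to 378697, 70451 and 58511 UPM in S2, S6 and S7. In the same order, B-cell markers summed to 1416 to 3973 UPM against 521, 1584 and 2817 UPM. NK-cell markers summed to 20.4 to 929 UPM against 77.1, 830 and 0 UPM. Neutrophil markers summed to 1655 to 5412 UPM in healthy mice and to 63578, 5235 and 73798 UPM in S2, S6 and S7, with 3 to 9 and 3 to 10 of 10 markers above 0. S6 thus lay within the healthy range of neutrophil markers. Monocyte markers summed to 517 to 3067 UPM against 4630 to 14198 UPM, with 4 to 8 and 6 to 8 of 8 above 0. T-cell markers summed to 528 to 1839 UPM in healthy mice, with 8 to 12 of 12 above 0, and to 237 to 464 UPM in CIA mice, with 1 to 11 of 12 above 0. Cd3d, Cd3e and Cd3g, which form part of the T-cell receptor complex, were at 0 in S6 and S7. The part of these cells in the Tgfb1, Tgfbr2 and Tgfbi values was not tested, and in summed barcodes fewer cells of a type and less RNA per cell cannot be told apart.

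In lymph node, which drains the joints and holds mostly lymphocytes, Tgfb1 stood at 95.6, 65.1, 75.6 and 90.0 UPM in H3, H4, H6 and H7 and at 13.1, 73.0 and 27.1 UPM in S1, S2 and S7. S1 and S7 were below every healthy mouse, and S2 lay above H4. The difference was -1.13 (SE 0.42) on the log2 scale, with an unadjusted p of 0.0152 and an adjusted p of 0.999 in limma over 5081 genes. It was -1.24 (SE 0.60) within the libraries of suffix 2CIA. The gene called in this comparison, 1 of 5081 (0.0197%), was Ifi27l2a, an interferon-induced gene named here after its value was seen (log2 difference 2.55, SE 0.33), and 0 of the 2 family members tested were called.

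Tgfbr2 did not separate the lymph node groups, with 115, 49.4, 96.0 and 48.2 UPM in H3, H4, H6 and H7 and 93.5, 81.0 and 67.3 UPM in S1, S2 and S7. All CIA values lay within the range of the healthy ones, and the difference was 0.13 (SE 0.37) on the log2 scale (adjusted p = 0.999 in limma). Tgfbr1 stood at 22.1, 0, 13.8 and 0 UPM in the healthy mice and 18.1, 2.84 and 27.6 UPM in the CIA mice (two-sided exact permutation p = 0.429). Tgfbr3 was above 0 only in H7 (19.3 UPM) and S2 (16.6 UPM), with an exact permutation p of 1. Tgfbi was above 0 only in S1, at 8.37 UPM, with an exact permutation p of 0.429, and Tgfb2 and Tgfb3 were listed at 0 in all 7 mice.

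The T-cell, B-cell and erythroid marker levels of the lymph node groups overlapped. T-cell markers summed to 2731 to 5332 UPM in healthy mice and 2835 to 3540 UPM in CIA mice, with at least 11 of 12 above 0, and B-cell markers to 933 to 2087 UPM and 1154 to 1992 UPM, with all 9 above 0. Erythroid markers ranged from 112 to 140519 UPM in healthy mice, where H7 was highest, and from 209 to 646 UPM in CIA mice, with 3 to 7 and 3 to 4 of 8 above 0. Neutrophil markers also overlapped, at 0 to 3175 UPM in healthy libraries and 87.1 to 1971 UPM in CIA libraries. NK-cell markers stood at 59.4 to 122 UPM in healthy mice and 135 to 166 UPM in CIA mice, with 1 to 3 and 3 to 4 of 7 above 0. How often lists or genes separate these few mice was not counted, so no result is read from the NK-cell order. Monocyte markers summed to 405 to 817 UPM in healthy mice and to 1425, 749 and 894 UPM in S1, S2 and S7, so that the mice with the lowest Tgfb1, S1 and S7, lay above every healthy mouse (5 of 8 above 0 in each mouse). The part of these cells in the Tgfb1 difference was not tested.

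**Figure D2:**
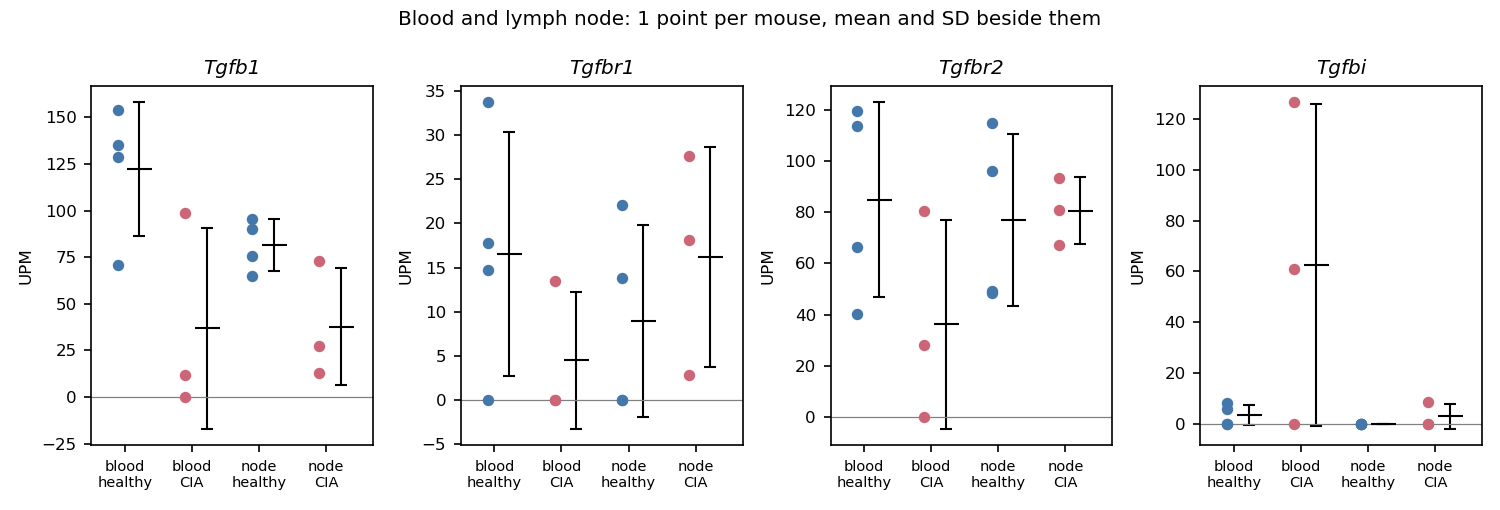
Points give the level (UPM, linear y axis) of Tgfb1, Tgfbr1, Tgfbr2 and Tgfbi in each healthy (blue) and CIA (red) mouse of blood and lymph node, with the mean and SD of the group beside them (n = 4 healthy and 3 CIA mice per organ). The Tgfb1 groups overlapped in both organs through S7 in blood and S2 in lymph node, and Tgfbi was high in 2 of 3 CIA blood mice.

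Between the organs, Tgfb1 was at 81.6 UPM in healthy lymph node and 122 UPM in healthy blood, a difference of -0.49 (SE 0.66, log2 scale, adjusted p = 0.754 in limma over 4810 genes). Tgfbr2 differed by -0.11 (SE 0.63, adjusted p = 0.953 in limma). Within the 2CIA libraries the differences were 1.36 (SE 1.39) and 1.26 (SE 1.30), the opposite sign. The median over all genes was 0.42 on the same scale, and 1.00 within the 2CIA libraries, so both genes lay below the middle of the table in the first fit and above it in the second. Of the 4810 genes 0 were called (0%), while 735 had an unadjusted p under 0.05. When every library counted as its own sample, 288 genes were called and again 0 family members. The CIA difference itself was compared between the organs with an interaction term, for which 0 of 4810 genes were called (0%) and 376 had an unadjusted p under 0.05. It was 1.02 (SE 1.00, adjusted p = 0.865 in limma) for Tgfb1 and 1.57 (SE 0.96, adjusted p = 0.706 in limma) for Tgfbr2, and -0.87 (SE 1.79) and 0.26 (SE 1.68) within the 2CIA libraries. A difference between the organs in the CIA effect on either gene was therefore not shown.

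Lymph node barcodes were also split by their leading marker list, a barcode being called T-marker or B-marker when the mean level of that list led the next list by 0.5 on a log2 scale. In T-marker barcodes Tgfb1 stood at 121, 93.3, 67.5 and 57.2 UPM in H3, H4, H6 and H7, from 38 to 202 barcodes per mouse, and at 2.62, 55.2 and 25.9 UPM in S1, S2 and S7, from 52 to 241. The CIA values lay below the healthy ones, by a small margin between H7 and S2. The share of all genes whose groups separate was not counted, so no result is read from this order. Of 4914 genes, 1 (0.0204%) was called, again Ifi27l2a. The difference of -1.57 (SE 0.62, log2 scale) had an unadjusted p of 0.0148 and an adjusted p of 0.999 in limma. Within the 2CIA libraries it was -1.89 (SE 0.78), and with a lead of 1 in place of 0.5, which left 2 healthy mice and 1 CIA mouse, it was -0.70 (SE 1.19) on the assumption that the lone mouse varied like the others. Of the 1627 T-marker barcodes in all organs, 385 led by less than 0.1 above the threshold.

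Tgfbr2 in T-marker barcodes stood at 100.2, 48.5, 99.3 and 43.5 UPM in the healthy mice and at 207, 136 and 64.7 UPM in S1, S2 and S7. The groups overlapped, and the difference of 0.77 (SE 0.52, log2 scale) had an adjusted p of 0.999 in limma and was -0.85 with a lead of 1, again with a single CIA mouse. In B-marker barcodes Tgfb1 stood at 48.9, 59.4, 160.3 and 115 UPM in the healthy mice, from 14 to 70 barcodes each, and at 56.5, 68.3 and 14.5 UPM in the CIA mice, from 18 to 164. This was a difference of -0.94 (SE 0.98, log2 scale, adjusted p = 0.932 in limma), among 15 calls over 5446 genes (0.275%) that held 0 family members, and it was 0.074 within the 2CIA libraries, where 1 healthy mouse was left. Tgfbr2 there differed by -0.67 (SE 0.96, adjusted p = 0.947 in limma). In blood no CIA mouse had 10 T-marker or B-marker barcodes, so no such comparison was made.

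The organs with 1 mouse per state give pairs of values without a test, and a gene counted as past 2-fold when log2(UPM + 10) differed by at least 1. A gene under 25 UPM in 1 of the 2 mice passed the filter only through the other, which fixed its direction. The median of that difference over all genes moved with the scaling, from -0.32 to 0.25 in joint, 0.47 to -0.14 in muscle, -0.22 to 0.13 in spleen and 0.07 to -0.15 in lung under the trimmed mean, and members past 2-fold kept their direction. In joint, the site of the disease, 5 of the 7 genes had a mean of at least 25 UPM and 0 were past 2-fold, beside 5.64% of all genes that were past it upward and 23.1% downward. Tgfb1 stood at 72.2 UPM in H3 and 44.4 UPM in S1, Tgfbr1 at 24.9 and 34.5 UPM, and Tgfbr2 at 80.3 and 77.1 UPM. Under the trimmed mean the background shares in joint became 16.9% and 9.83%, and no member came past 2-fold there or under the median ratio. Tgfb2 and Tgfb3, at 40.1 and 25.4 UPM in S1 and listed at 0 in H3, were under the filter. Both were at 0 in the second joint library of S1, which listed 3218 genes. Fibroblast markers summed to 17570 UPM in H3 and 29499 UPM in S1, with 9 of 9 above 0 in both.

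In lung, Tgfb1 was 128 UPM in H6 and 46.6 UPM in S1, while Tgfbi was 44.0 UPM in H6 and 147 UPM in S1. These 2 of the 3 genes over the filter were past 2-fold, Tgfbi upward (background 24.4%) and Tgfb1 downward (background 22.7%). Tgfbr1 stood at 161 and 143 UPM. Lung epithelial markers summed to 22138 UPM in H6, with 6 of 6 above 0, and to 2372 UPM in S1, where Sftpb, Sftpa1, Ager and Sftpd were at 0. Neutrophil markers summed to 496 UPM in H6 (3 of 10 above 0) and 17489 UPM in S1 (7 of 10), and macrophage markers to 2023 UPM (8 of 8) and 496 UPM (6 of 8). B-cell (515 UPM in H6), fibroblast (358 UPM) and endothelial (147 UPM) markers were all listed at 0 in S1. The part of these cells in the lung differences was not tested.

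In muscle, 4 of 7 genes passed the filter and all 4 were past 2-fold. Tgfbr2 (30.9 UPM in H6 and 234 UPM in S1) and Tgfbi (9.90 and 44.9 UPM) were upward, against a background of 37.5%. Tgfb1 (69.3 and 18.9 UPM) and Tgfbr1 (108 UPM and 0) were downward, against a background of 18.1%. Under the trimmed mean the background shares were 24.8% and 29.5%, and the directions of all 4 genes were kept. With each distinct profile counted once, Tgfbi was at 6.08 UPM in H6 and 23.5 UPM in S1, which is under the filter. Tgfb1 was then at 84.5 and 31.4 UPM. The muscle libraries differed in the cells they held. Skeletal muscle markers summed to 81.6 UPM in H6, with Ckm, Tnnt3, Myh4 and Myh1 at 0, and to 5143 UPM in S1, fibroblast markers to 668 and 13907 UPM, and neutrophil markers to 105316 and 18658 UPM. T-cell (1006 and 87.5 UPM) and B-cell markers (1309 and 300.2 UPM) were lower in S1, and macrophage (147 and 2980.5 UPM), endothelial (128 and 829.6 UPM) and smooth muscle markers (55.2 and 1340.2 UPM) higher. The healthy library thus lacked defining genes of the labelled tissue, and the part of these cells in the muscle differences was not tested.

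In skin, Tgfbr1 was 25.2 UPM in H6 and 83.8 UPM in S1, and Tgfbr2 54.2 and 19.0 UPM. These 2 of the 5 genes over the filter were past 2-fold, Tgfbr1 upward (background 12.3%) and Tgfbr2 downward (background 12.8%), so that the type I receptor was higher and the type II receptor lower in the CIA mouse. Tgfbr3 (117 and 55.7 UPM), Tgfbi (46.0 and 89.5 UPM) and Tgfb2 (22.4 and 44.4 UPM) were within 2-fold on this scale. With each distinct profile counted once, Tgfbr3 was at 123 and 17.7 UPM, past 2-fold, and Tgfbi at 71.4 and 69.1 UPM, while Tgfbr2 was at 50.3 and 7.09 UPM, so these values depend on repeated profiles. Fibroblast markers summed to 5186 UPM in H6 and 19076 UPM in S1 (9 of 9 above 0 in both), keratinocyte markers to 5255 and 2352 UPM (8 of 8 above 0 in both) and endothelial markers to 129 UPM (5 of 8) and 28.2 UPM (3 of 8). The part of these cells in the skin differences was not tested.

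In spleen, 3 genes passed the filter and Tgfbi was past 2-fold upward (22.4 UPM in H6 and 60.6 UPM in S1, background 13.6%), with 0 downward (background 23.3%). Tgfb1 (44.8 and 72.9 UPM) and Tgfbr2 (20.7 and 37.8 UPM) were within 2-fold. Under the trimmed mean the background shares were 20.6% and 15.1%. Neutrophil markers summed to 4415 UPM in H6 (7 of 10 above 0) and 98095 UPM in S1 (10 of 10), monocyte markers to 2672 UPM (6 of 8) and 6009 UPM (8 of 8), and erythroid markers, although red cells had been lysed, to 589 UPM (4 of 8) and 92579 UPM (8 of 8). Their part in the spleen values was not tested. In thymus, 2 genes passed the filter and 0 were past 2-fold, beside backgrounds of 10.4% upward and 6.61% downward. Tgfb1 stood at 76.1 UPM in H6 and 37.6 UPM in S1, and Tgfbr1 at 77.5 and 43.8 UPM.

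Summed over all organs, the leading marker list of a barcode separated the family members. Tgfb3 had 86.6% of its units in fibroblast-marker barcodes, which held 5.73% of all units, and Tgfb2 had 65.3% and Tgfbr3 44.5% of theirs there. A single joint library of S1 gave 215 of the 277 Tgfb3 units and 340 of the 455 Tgfb2 units. The shares of these 2 ligands therefore describe mainly that library. Tgfbi had 33.4% in fibroblast-marker and 29.2% in monocyte-marker barcodes, the latter holding 5.04% of all units. By contrast Tgfb1 had 21.1% in T-marker barcodes where 21.0% of all units lay. These shares are descriptions over neighbouring, smoothed barcodes from few mice and carry no test.

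As levels, Tgfbi stood at 250 UPM over 390 fibroblast-marker barcodes and 248 UPM over 373 monocyte-marker barcodes, against 0 over 1627 T-marker and 5.08 UPM over 675 B-marker barcodes. The monocyte-marker level was 209 UPM in CIA blood, 210.4 UPM in CIA lung, 223 UPM in CIA spleen and 370.4 UPM in CIA joint. The lung, spleen and joint values all came from the same mouse, S1. Healthy muscle, with 23 barcodes, was lower at 107 UPM. In blood it came from S2, at 285 UPM over 57 barcodes, while the 19 such barcodes of S6 were listed at 0. Neutrophil-marker barcodes held Tgfbi at 58.9 UPM, and in blood at 151 UPM over 20 barcodes of S7 and at 0 over 28 of S2. Among lists that led at least 40 barcodes, Tgfbr2 stood highest over 47 endothelial-marker barcodes (208 UPM) and 390 fibroblast-marker barcodes (120.0 UPM), and Tgfbr3 at 129 and 127 UPM in the same lists. The mice behind these Tgfbr2 values differed, since the endothelial-marker barcodes of joint stood at 0 in H3 (10 barcodes) and 244 UPM in S1 (33), and fibroblast-marker barcodes ran from 38.0 UPM in the skin of S1 to 309 UPM in the muscle of S1.

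Fibroblast-marker barcodes allowed values side by side for joint and skin. In joint they numbered 80 in H3 and 180 in S1, with Tgfb2 at 0 and 109 UPM, Tgfb3 at 0 and 77.2 UPM, Tgfbr3 at 155 and 97.8 UPM and Tgfbi at 264 and 299 UPM. In skin they numbered 56 in H6 and 50 in S1, with Tgfb2 at 26.7 and 20.3 UPM, Tgfb3 at 0 and 83.6 UPM, Tgfbr1 at 30.8 and 117 UPM, Tgfbr3 at 240.3 and 139 UPM and Tgfbi at 12.3 and 241 UPM. Both organs had Tgfb3 higher and Tgfbr3 lower in fibroblast-marker barcodes of the CIA mouse, which was S1 in both, while Tgfb2 went opposite ways and Tgfbi was close in joint. The joint library of H3 lacked most rare genes. For Tgfb2 and Tgfb3 in joint, the state and this difference between libraries cannot be told apart. The 50 barcodes of CIA skin held 12 distinct profiles and the 56 of healthy skin 21, so few independent profiles lie behind these values.

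**Figure D3:**
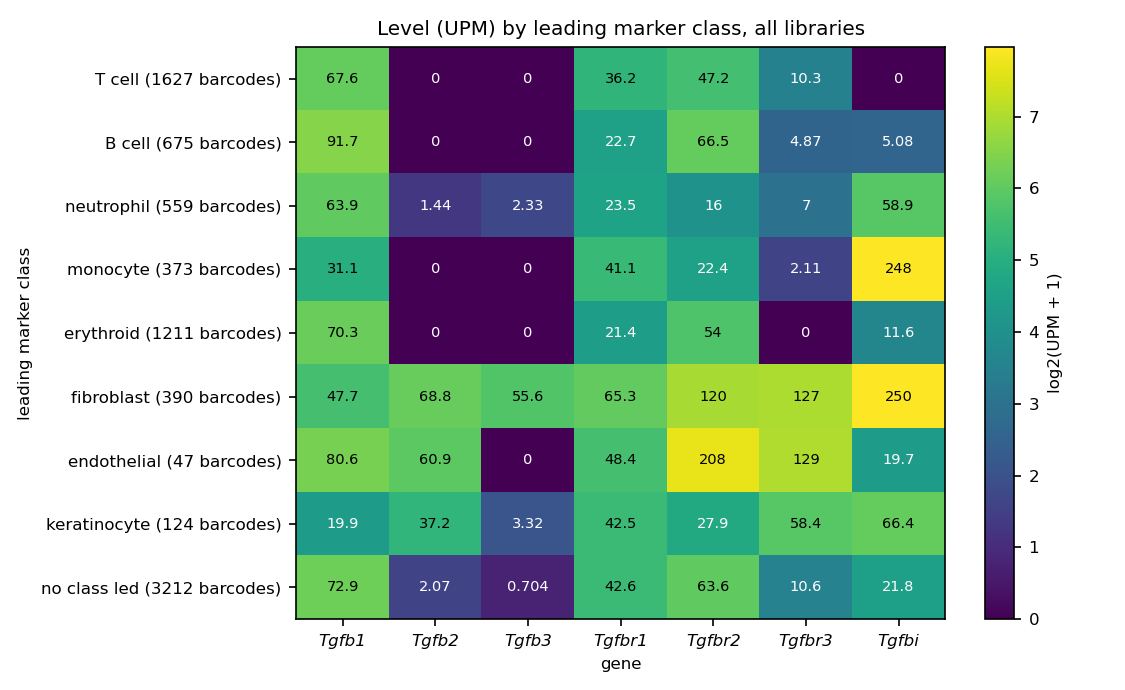
The heat map gives the level of each gene (columns) over the barcodes led by each marker list (rows, with at least 40 barcodes), with the value in UPM written in the cell and the colour on a log2(UPM + 1) scale. Tgfb2, Tgfb3, Tgfbr3 and Tgfbi stood high in fibroblast-marker barcodes, and Tgfbi also in monocyte-marker barcodes, while Tgfb1 was spread over the lists. Most Tgfb2 and Tgfb3 units came from a single joint library of S1.

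Other genes of the pathway were described from 4 lists with 61 genes: latency and activation (16 genes), co-receptors and receptor regulators (10), SMADs and nuclear regulators (16) and transcriptional targets (19). In blood 1, 3, 8 and 7 of them passed the filter and 0 were called. The smallest p among the targets belonged to Cdkn1a, a cell-cycle inhibitor (log2 difference 2.20, SE 0.77, adjusted p = 0.503 in limma), and Acta2, smooth muscle actin (2.30, SE 0.95, adjusted p = 0.538 in limma). Among the nuclear regulators they belonged to Trim33, a ubiquitin ligase that acts on SMAD4 (-2.03, SE 0.94, adjusted p = 0.538 in limma), and the signal carrier Smad2 (1.41, SE 0.98). Nrros, which anchors latent TGF-beta1 on myeloid cells, differed by 0.51 (SE 1.10), and the co-receptor list was led by Usp15 (-0.19, SE 1.10) and Fkbp1a (0.10, SE 1.05).

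In lymph node the same numbers of genes passed the filter and 0 were called. The smallest p values were those of Junb (-0.32, SE 0.21) and Klf10 (0.53, SE 0.51) among the targets, of the ubiquitin ligase Smurf2 (0.93, SE 0.62) and the inhibitory Smad7 (-0.39, SE 0.31) among the regulators, and of Usp15 (0.23, SE 0.37) and Strap (0.22, SE 0.40) among the co-receptor genes. Nrros differed by -0.25 (SE 0.58), and adjusted p was 0.999 for each of these in limma. In T-marker barcodes 0 of the 17 genes tested were called, with Smurf2 (1.94, SE 0.75) at the smallest p. In B-marker barcodes 0 of 16 were called, with Junb, an early response transcription factor, at the smallest p (-0.78, SE 0.22, adjusted p = 0.0962 in limma). Between healthy lymph node and healthy blood Acta2 had the smallest p (1.87, SE 0.61, adjusted p = 0.242 in limma), and the interaction term also had Acta2 first (-2.28, SE 0.94, adjusted p = 0.537 in limma), again with 0 of 19 pathway genes called in each.

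In CIA joint 6 of 16 targets over the filter were past 2-fold upward and 0 downward, beside 5.64% and 23.1% of all genes. Recounted under the trimmed mean, a count added after seeing the data, 10 of 16 were upward and 0 downward, beside 16.9% and 9.83%. They were led by Postn (18.3 UPM in H3 and 415 UPM in S1), a matrix protein of connective tissue, and Col1a1 (1054 and 5225 UPM), the main chain of type I collagen. Among the latency genes Fmod (129 and 345 UPM) and Bgn (303 and 623 UPM) were upward and Dcn (7887 and 2315 UPM) and Ltbp4 (253 and 73.2 UPM) downward. The proteoglycans Fmod, Bgn and Dcn, which can bind TGF-beta, thus did not all point one way. Under the trimmed mean 5 of 10 latency genes were upward and 2 downward. Col1a1, Col1a2, Col3a1 and Dcn stand on both the pathway and the fibroblast marker lists, in every organ described here. In joint the fibroblast markers summed to 17570 UPM in H3 and 29499 UPM in S1 and the neutrophil markers to 62258 and 129960 UPM (8 and 10 of 10 above 0), and their part in the pathway values was not tested. Eng (77.3 and 26.0 UPM), an endothelial co-receptor, Tgif2 (54.4 and 4.72 UPM) and Trim33 (39.7 and 11.7 UPM) were downward. Under the trimmed mean 0 of 7 co-receptor genes were downward, so Eng was no longer counted. Of 9 nuclear regulators 1 was then downward and 1 upward.

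In muscle 12 of 15 targets and 9 of 9 latency genes were upward and 0 downward, beside 37.5% and 18.1% of all genes. Under the trimmed mean, likewise recounted, 10 of 15 targets and 7 of 8 latency genes were upward and 0 downward, beside 24.8% and 29.5%. They were led by Col3a1 (39.0 UPM in H6 and 2484 UPM in S1), Fn1 (0 and 437 UPM), Dcn (216 and 5701 UPM) and Mmp14 (7.20 and 357 UPM). Eng was at 0 and 132 UPM, Usp15 at 71.4 UPM and 0. Smurf2 (22.2 and 99.3 UPM) and Ski (37.5 and 123 UPM) were upward, and Smad7 (104 and 26.0 UPM) and Trim33 (65.1 and 26.0 UPM) downward. The marker values of muscle given above, with fibroblast markers at 668 and 13907 UPM, apply to these genes too. Fbn1 (0 and 137 UPM), Postn (0 and 333 UPM), Mmp14, Fn1 and others passed the filter through S1 alone. Their upward direction was fixed by the filter, which the shares of all genes also passed. The muscle library of H6 lacked most rare genes and that of S1 kept them. The state and this difference between libraries cannot be told apart here.

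In skin 4 of 15 targets were upward and 3 downward, beside 12.3% and 12.8% of all genes. Col1a1 (1101 UPM in H6 and 5935 UPM in S1) and Col1a2 (972 and 3722 UPM) led upward, beside fibroblast markers at 5186 and 19076 UPM, and Id1 (168 and 8.45 UPM), an inhibitor of differentiation factors, was downward. Of 10 latency genes 4 were upward, led by Bgn (54.7 and 272 UPM) and Mmp14 (50.9 and 197 UPM), with 0 downward. Usp15 (27.9 and 119.8 UPM), Vasn (46.5 and 109.9 UPM) and Smad4 (40.5 and 104 UPM) were upward, and Nedd4l (38.3 and 14.1 UPM), Trim33 (61.3 and 16.9 UPM) and Smurf2 (61.3 and 21.8 UPM) downward.

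In lung, where 24.4% of all genes were upward and 22.7% downward, 1 of 10 targets was upward, Fn1 (14.7 UPM in H6 and 50.0 UPM in S1). Another 3 were downward, led by Tsc22d1 (119 UPM and 0) and Id3 (325 and 90.6 UPM). Under the trimmed mean 1 of 10 targets was upward and 5 were downward, beside 20.1% and 26.9% of all genes. Dcn (149 UPM), Bambi (134 UPM), a decoy receptor, and Ski (92.1 UPM) were above 0 in H6 and listed at 0 in S1. The lung library of H6 kept its rare genes and that of S1 lacked most of them, so the state and this difference between libraries cannot be told apart here either. Pmepa1 (230.3 and 85.5 UPM) was downward and Smad2 (0 and 70.3 UPM) and Ppm1a (50.3 and 169 UPM) upward. Spleen had 3 of 6 nuclear regulators downward, beside 23.3% of all genes, and 3 of 6 were downward under the trimmed mean beside 15.1%. They were led by Smad4 (103 and 15.1 UPM) and Skil (392 and 88.9 UPM). Among the targets Id1 (18.1 and 54.8 UPM) was upward and Acta2 (42.2 and 14.5 UPM) downward. Under the trimmed mean 1 of 8 targets was upward and 0 were downward, so Acta2 was no longer counted. In thymus Acta2 (8.75 and 45.8 UPM) was upward and Klf10 (178 and 70.4 UPM), Tsc22d1 (166 and 68.7 UPM) and Smad2 (73.2 and 21.9 UPM) downward.

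**Figure D4:**
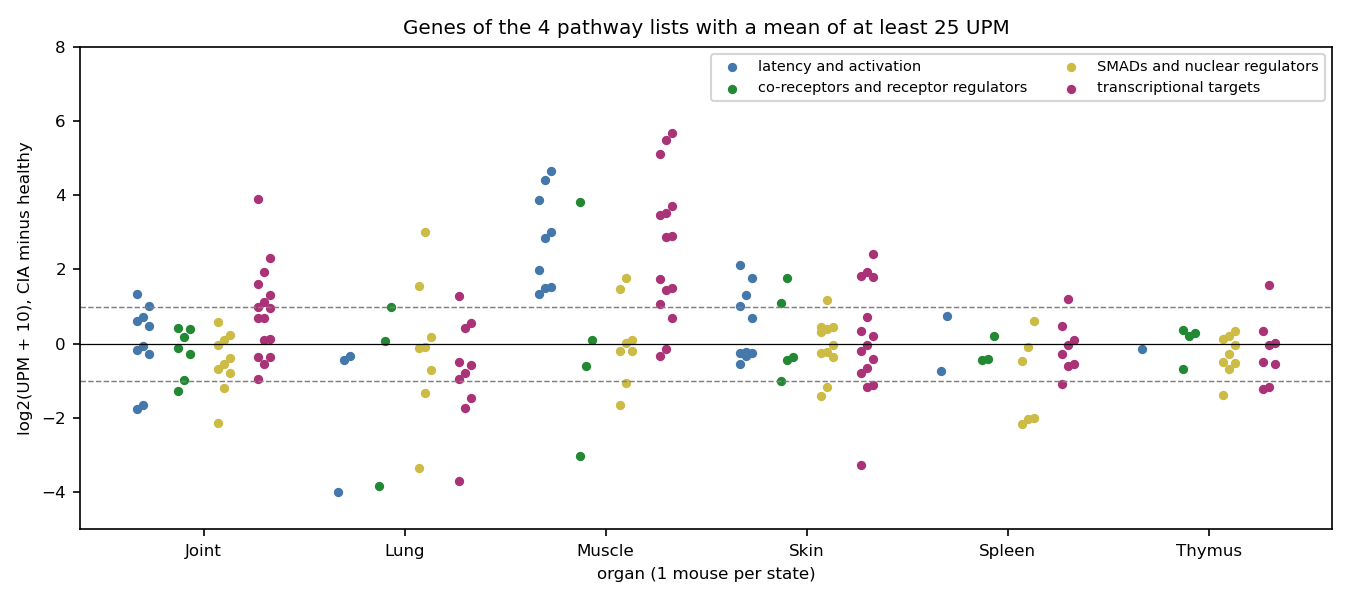
Each point is 1 gene of the 4 pathway lists whose mean reached 25 UPM, placed by organ (x axis) and by the CIA value minus the healthy value on the log2(UPM + 10) scale (y axis), with dashed lines at 2-fold and 1 mouse per state. In muscle all 9 latency genes and 12 of 15 targets lay above the upper line, and in joint 6 of 16 targets did. Genes under 25 UPM in 1 mouse passed the filter through the other, which fixed their direction.

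The genes whose levels most resembled those of a family member were sought over the 16 organ-state means among the 5744 genes whose mean reached 25 UPM. For Tgfbi they were S100a6 (Pearson r = 0.91), Ifitm3 (r = 0.91) and S100a4 (r = 0.89). For Tgfbr1 they were Gatad2a (r = 0.91), Rnf115 (r = 0.90) and Kdm1a (r = 0.88), for Tgfbr2 Kbtbd3 (r = 0.84), Ly6a (r = 0.84) and Sptbn1 (r = 0.81), and for Tgfb1 Nabp1 (r = 0.81), Pak2 (r = 0.81) and Prex1 (r = 0.79). Tgfb2, Tgfb3 and Tgfbr3 had means under 25 UPM and were not ranked. These correlations share libraries and mice and describe likeness of level only.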

How the data were processed

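The authors demultiplexed reads with bcl2fastq, aligned them with STAR, counted molecules with the Drop-seq tools and smoothed the pilot libraries over neighbouring cells, by the study's methods and the submitters' processing notes. The deposited values are therefore a smoothed signal in whole-number units, not counts: 8282 barcodes held 4590 distinct profiles, with column totals of 4373 to 36435. Intervals and floors for counts were therefore not computed, and 40 barcode sequences occurred in more than 1 library. The submitters' notes name other genome builds than the GRCm38 of the study's methods, and coordinates are those of a RefSeq GRCm38 gene table. Symbols were matched to Entrez numbers for 21404 of 23013 rows, and rows without a symbol (3.39% of units) stayed in the totals.

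Units were summed per mouse and organ and expressed per 1000000 (UPM). Genes whose mean reached 25 UPM were tested on log2(UPM + 10) with limma 3.58.1 in R 4.3.3 (moderated variances, mean-variance trend, two-sided, Benjamini-Hochberg over all genes tested, call at an adjusted p under 0.05), in place of a count model. Such a difference understates the change of low genes. Family members under the filter had a two-sided exact permutation test over mice. Blood and lymph node were fitted alone (4 healthy and 3 CIA mice each), and organ and interaction over both. Barcodes took the marker list with the highest mean of log2(UPM + 100) over the barcode average, at a lead of 0.5 over the next list, which left 38.8% without a list. At least 10 such barcodes per mouse were needed. No barcode was removed as a possible doublet. The steps were tested on simulated data.

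H3, H4, H6, H7, S2 and S7 gave both organs, so the mouse pairs these samples. Deviations from the group means correlated at -0.26 to 0.18 between the organs of a mouse (4810 genes). Family and pathway lists, marker lists and tests were chosen with earlier results of these data known. Pathway genes were named by list: up to 2 with the smallest p in each test where none was called, and in organs with 1 mouse per state up to 2 per list and direction past 2-fold. A gene that this rule names in skin is not reported here. Alternatives were 2 other scalings, pseudocounts of 1 and 50, no filter, no trend, single mice left out, 2CIA libraries alone, libraries as samples, each distinct profile once, the mouse as a block and a lead of 1.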

Additional observations from a re-analysis of the deposited data

Results flagged for a closer look

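Over the groups of 4 healthy mice in blood and lymph node, 9 sets of family member values were screened for a mouse standing apart, and 2 were marked, both for Tgfbr3. In healthy blood H6 stood at 6.09 UPM and the other 3 mice at 0. In healthy lymph node H7 stood at 19.3 UPM and the other 3 mice at 0. About 5% of such groups are marked by chance, and a gene listed at 0 in 3 mice is marked whenever the other mouse has any unit. The interaction of organ and state passed the threshold for neither of the 2 members tested.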

How the results depend on the processing

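The count of family members called was 0 in all 6 tested comparisons and stayed 0 under all 16 to 20 alternatives of each. Calls over all genes moved more: 16 in blood (0 to 21 over the alternatives), 1 in lymph node (0 to 9), 0 between healthy organs (0 to 288), 0 for the interaction (0 to 14), 1 in T-marker barcodes (0 to 6) and 15 in B-marker barcodes (0 to 24). Pathway genes called went from 0 to 1 between healthy organs with every library its own sample, and ranged from 0 to 1 in B-marker barcodes when single mice were left out (1 without H3). The Tgfb1 difference kept its sign in blood (-3.45 to -0.37, adjusted p 0.298 to 0.999 in limma), lymph node (-1.63 to -0.64) and T-marker barcodes (-2.22 to -0.70). Leaving out single mice moved Tgfb1 in blood between -3.11 and -1.39 and in lymph node between -1.63 and -0.71. It moved the interaction between 0.26 and 2.06 for Tgfb1 and between 0.72 and 2.42 for Tgfbr2.

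No alternative that turned a sign made a call. With 2CIA libraries alone, Tgfb1 between healthy organs became 1.36, Tgfbr2 1.26, the Tgfb1 interaction -0.87 and Tgfb1 in B-marker barcodes 0.074 (1 healthy mouse left). With every library its own sample, Tgfb1 and Tgfbr2 between healthy organs became 0.15 and 0.39, and Tgfbr2 in T-marker barcodes -0.034. Counting each distinct profile once gave 0.049 for Tgfbr2 between healthy organs, and a lead of 1 gave -0.85 for Tgfbr2 in T-marker barcodes (1 CIA mouse left). Leaving out single mice gave Tgfbr2 -0.037 to 0.33 in lymph node (-0.028 without H4), -0.30 to 0.22 between healthy organs and -1.42 to 0.41 in B-marker barcodes. The cause was not tested. The mouse as a replicate block changed no call: the Tgfb1 difference between healthy organs was -0.49 with the mouse as random or fixed term, and the Tgfb1 interaction 1.02 and 0.68.

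In organs with 1 mouse per state, the number of members past 2-fold with a pseudocount of 50 was 1 in lung (2 before), 2 in muscle (4 before), 0 in skin (2 before) and 0 in spleen (1 before). Without the filter, which lets low genes in, it was 2 in joint (0 before), 4 in skin, 6 in muscle and 3 in lung. With each distinct profile once it was 1 in thymus (0 before). The group with the highest level stayed for 3 of 7 members under the trimmed mean and 4 of 7 under the median ratio. These values rest on 1 mouse per state and on smoothed barcodes.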
